A study of Mus musculus with 8 samples.

Results

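The comparison is between proB and pre-proB cells of control Erg fl/fl mice, the bone marrow populations that lie on either side of commitment to the B lineage. It uses 4 of the 8 libraries of the series, 2 for each stage, and 13417 of the 27179 genes in the count table, which are all genes that reached 0.5 CPM (counts scaled to a common library size) in 2 or more of these 4 libraries. All 4 libraries come from control mice with floxed, undeleted Erg alleles, so no Cre recombinase and no loss of Erg enters the comparison. The mice were 7 to 10 weeks old, 2 per genotype, and the sources do not tie a library to an animal. Cells were sorted as B220+ IgM- IgD- NK1.1- CD11c- CD43+, and CD24 separated pre-proB cells (CD24-, Hardy fractions A to B) from proB cells (CD24+, Hardy fraction C). Transcripts of the sorted markers (Cd24a, Spn, Ptprc, Itgax, Klrb1c, Ighm and Ighd) were chosen by the sort, so their levels are checks of it and not findings. The other 4 libraries are of Erg fl/fl preB cells and of pre-proB cells in which Rag1-driven Cre had deleted Erg (genotype Rag1Cre T/+;Erg Δ/Δ), and their levels are set beside those of the control stages for a few genes only.

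B cells arise in bone marrow from lymphoid progenitors that still hold T, natural killer (NK) and dendritic potential. The E protein Tcf3 (E2A), Foxo1 and Ebf1 switch on early B-cell genes, and Pax5 then fixes the B-cell fate and represses genes of other lineages. In the same window the Rag1 and Rag2 recombinase joins heavy chain D to J segments and then V to DJ segments, and the surrogate light chain (Igll1 and Vpreb) pairs with the first heavy chain to form the pre-B-cell receptor (pre-BCR). ProB cells divide under interleukin-7 before they rearrange light chains at the preB stage.

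Library totals were between 15565381 and 18457632 counts, at which 3 counts correspond to 0.163 to 0.193 CPM. Levels are given in CPM scaled by TMM over the 4 libraries, in the order replicate 1 and replicate 2, and compare a gene between libraries but not genes of different length with each other. Differences are log2 fold changes of proB over pre-proB cells with their standard error (±), from edgeR's quasi-likelihood test, and a gene was called at a Benjamini-Hochberg adjusted p below 0.05. The smallest p of an exact permutation test is 0.33 with 2 libraries a stage, so all calls rest on the fit across genes. The labels number the replicates without naming the animals, so p-values measure the spread between these libraries only. Between replicates the log2 CPM correlated with r = 0.985 (pre-proB) and r = 0.992 (proB) across genes, which are not independent replicates, and 635 and 382 genes differed over 2-fold.

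Expression changed at most genes. Of 13417 genes tested, 9861 were called (73.5%), of which 4945 were higher (36.9%) and 4916 lower (36.6%) in proB cells, and 10159 had an unadjusted p below 0.05. Over these genes the median log2 fold change was 0.01 and the median size of the change was 0.68. Because so many genes were called, counts of called members say little, and the numbers called with at least a 2-fold change are given beside them. This stricter rule, added with the data in view, took in 2084 genes higher in proB cells (15.5%) and 2575 lower (19.2%). These shares stand as the background for every list count below. Larger changes were more often decreases, with 223 genes at least 8-fold higher and 789 at least 8-fold lower, and 24 and 231 genes past 32-fold. Genes 2-fold lower in proB cells made up 27.04% and 28.41% of the tested counts in the pre-proB libraries and 6.10% and 6.20% in the proB libraries. Those 2-fold higher made up 7.15% and 6.56% against 21.8% in both proB libraries. The filter excluded 13762 genes, 8999 of them without a count in any of the 4 libraries. Another 540 tested genes were under 0.5 CPM in both proB libraries and 339 in both pre-proB libraries, so they passed only through the other stage and could hardly fail to differ.

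**Figure D1:**
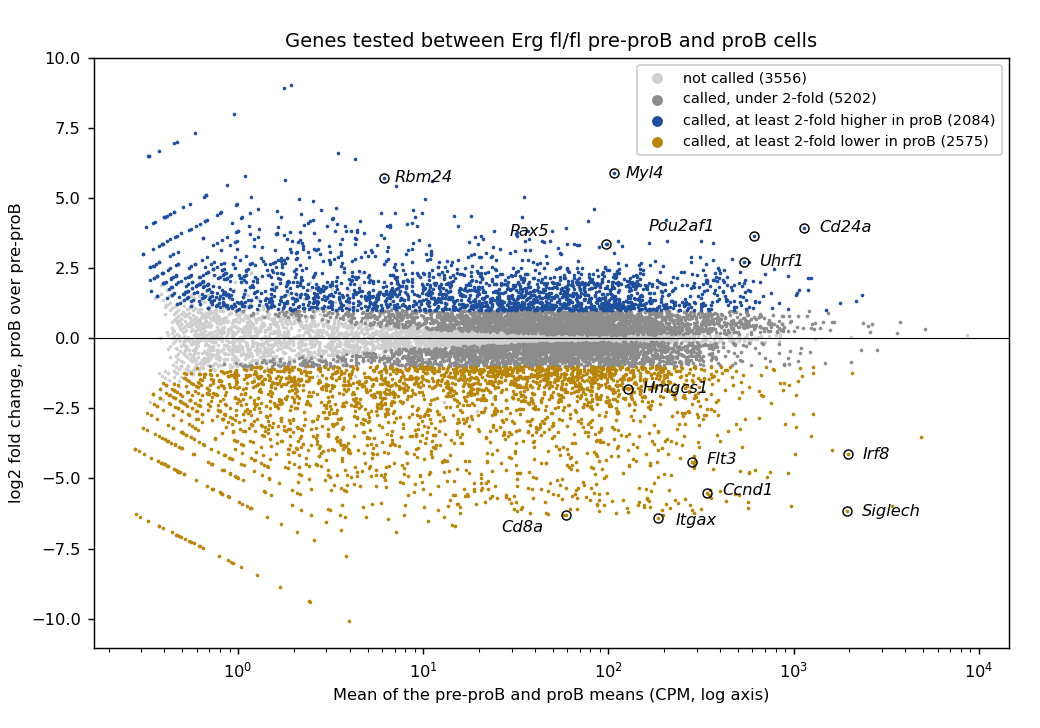
Log2 fold change of proB over pre-proB cells (vertical axis) against the mean of the stage means in CPM (horizontal log axis) for the 13417 genes tested, 1 point a gene, with 13 genes circled. Decreases (gold) reach further than increases (blue): 789 genes were called at least 8-fold lower and 223 at least 8-fold higher, and the oblique rows at the lower left and upper left are genes with few or no counts in one stage.

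Markers of other cell types were checked first, since sorted populations can hold more than their label says. The 20 plasmacytoid dendritic cell markers listed were all called at least 2-fold lower in proB cells, and their summed level was 21773 and 23366 CPM in the pre-proB libraries against 1052 and 1165 CPM in the proB libraries. Siglech, a surface receptor that defines these dendritic cells, stood at 3888 and 3784 CPM and then 48.0 and 58.9 CPM. None of the 20 markers was at 0 in a pre-proB library. Of 10 conventional dendritic markers tested 8 were at least 2-fold lower and 2 at least 2-fold higher (Cd83 and Ccr7), with sums of 1315 and 1416 CPM against 75.1 and 94.8 CPM. Cd83 lost its call with either proB library left out. Itgax (CD11c) was at 329 and 400.3 CPM and then 3.15 and 5.36 CPM although the gate excluded CD11c. NK markers summed to 266 and 289.7 CPM against 12.7 and 20.8 CPM, and T cell markers to 818 and 967 CPM against 149 and 161 CPM. Of 15 NK markers tested, 8 (Ncr1, Klra4, Klra8, Klre1, Gzma, Gzmb, Eomes and Tbx21) were under 0.5 CPM in both proB libraries and so passed the filter only through the pre-proB libraries, as did 5 of 16 T cell and 2 of 10 conventional dendritic markers. The other 7 NK markers were all called lower, Klrd1 from 176 and 172 to 2.48 and 3.86 CPM and the sort gene Klrb1c (NK1.1) from 11.2 and 7.70 to 4.34 and 4.34 CPM. Of the other 11 T cell markers 8 were called lower and 3 higher (Lck, Lat and Zap70). Defining genes of both lists were low but not at 0 in the pre-proB libraries, where Ncr1 was at 2.14 and 2.89 CPM and Cd3e at 4.98 and 6.43 CPM. Without pre-proB replicate 2, 5 of 7 NK markers that still passed the filter were called lower.

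Myeloid markers split between the proB libraries. Mpo, a granule enzyme of myeloid progenitors, was at 57.9 and 69.6 CPM in pre-proB cells and 4.11 and 23.2 CPM in proB cells, and S100a8 of neutrophils at 29.1 and 9.80 CPM and then 37.7 and 106 CPM. ProB replicate 2 was the higher in both. Of 19 myeloid markers tested 6 were called higher and 6 lower, all of them at least 2-fold, and without proB replicate 2 the called counts were 2 and 8. Among the 6 myeloid markers called lower with all libraries, 1 was under 0.5 CPM in both proB libraries and so passed the filter only through the pre-proB libraries. The 5 erythroid and megakaryocyte markers tested included 4 called at least 2-fold higher, 1 of which was under 0.5 CPM in both pre-proB libraries, at summed levels of 3.43 and 3.25 CPM against 17.6 and 20.4 CPM. Among the 3 basophil and mast cell genes tested only Cpa3 was called, lower in proB cells, and not without proB replicate 1. Plasma cell markers (4 higher and 2 lower of 8, 4 and 1 at least 2-fold) and mature B-cell markers (5 higher and 3 lower of 10, 4 and 3 at least 2-fold) were mixed, and without pre-proB replicate 2 the plasma cell list had 2 members at least 2-fold higher. Among the 3 mature B-cell markers called lower, 1 was under 0.5 CPM in both proB libraries and so passed the filter only through the pre-proB libraries. Over all genes tested 36.9% were called higher and 36.6% lower. Listed markers under the filter were Batf3, Fasl, Cebpe, Fcer1a, Ms4a2, Gata2, Cd200r3, Klf1, Epor, Car1, Pf4 and Gp9, and Hbb-bt had no row in the table. Male and female transcripts were present in every library: Xist was at 838 and 886 CPM in the pre-proB and 602 and 469 CPM in the proB libraries, and Ddx3y of the Y chromosome at 104 and 97.4 CPM and then 87.2 and 97.1 CPM. Of the 5 sex-linked genes only Xist was called, lower in proB cells by under 2-fold, and 4 were called lower without pre-proB replicate 2. Bulk levels cannot tell fewer cells of a type from less RNA per cell, and the part of these other cells in the differences below was not tested.

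**Figure D2:**
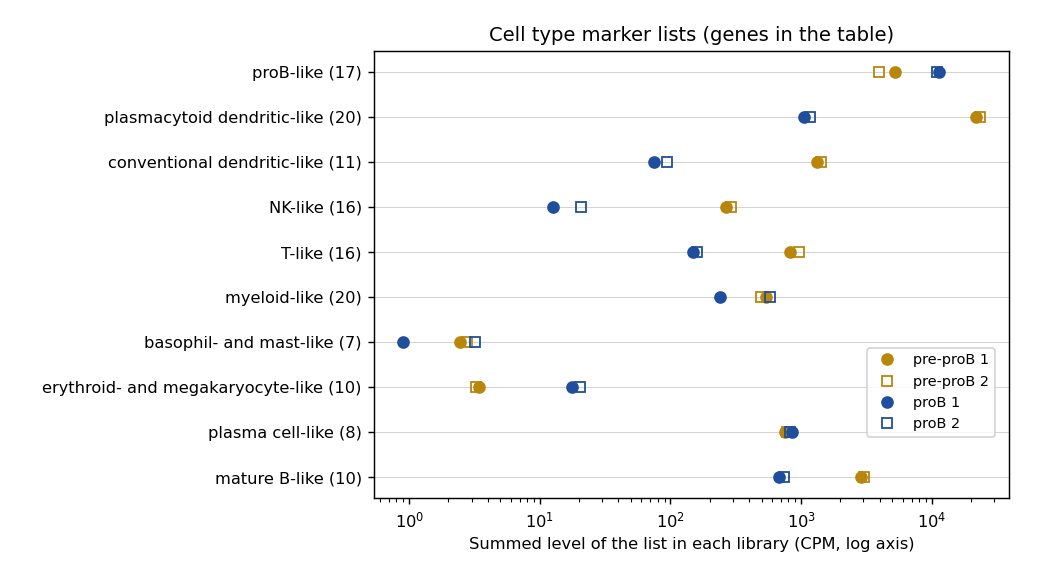
Summed level of each cell type marker list in each library, in CPM on a log axis, with the number of genes in the table in parentheses. Plasmacytoid and conventional dendritic, NK and T lists lie to the right in both pre-proB libraries (gold) and the proB-like list in both proB libraries (blue), and the myeloid sums overlap.

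The pre-proB replicates differed in B-lineage transcripts. Replicate 1 held 2.82 times the Ebf1 level of replicate 2, 2.87 times the Cd79a level and 3.51 times the Pax5 level. Of 1529 genes that were 2-fold higher in proB cells and reached 1 CPM in both pre-proB libraries, 239 were over 1.5 times higher in replicate 1 and 21 in replicate 2, with a median ratio of 1.05. Over all 11942 genes tested that reached 1 CPM in both, the counts were 444 and 137, and over the 2380 genes that were 2-fold lower in proB cells they ran the other way, 26 and 70. Where the replicates differ the fold change depends on the library, so values without each pre-proB library are given where they differ. None of the 17 proB-like markers overlapped between the stages, the sort gene Cd24a included. Cd24a was at 170.0 and 109.5 CPM and then 2145 and 2150.4 CPM. Of these markers 15 were called higher, 12 of them at least 2-fold, and Ptprc (B220) and Spn (CD43) at least 2-fold lower.

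The largest increases were led by a muscle protein gene. Myl4, an atrial and embryonic myosin light chain, was at 4.21 and 2.89 CPM in pre-proB cells and 227 and 195 CPM in proB cells, a 59.5-fold rise (log2 5.90 ± 0.15, edgeR adjusted p = 1.33e-06). Col5a3, a collagen chain, went from 2.20 and 1.86 to 72.2 and 62.9 CPM (log2 5.05 ± 0.13). Cpm, a membrane carboxypeptidase, went from 8.93 and 4.15 to 170.1 and 152 CPM (log2 4.63 ± 0.24). Stages that do not overlap were a condition for naming these genes. Rbm24, an RNA-binding splicing factor, had only 5 and 2 counts in the pre-proB libraries and 226 and 210 in the proB libraries, and its log2 fold change was 6.49 without pre-proB replicate 1 and 5.14 without replicate 2. Egfl6, a secreted EGF-repeat protein, had 11 and 3 counts and then 431 and 358 counts, with 6.79 and 4.88 in the same order.

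Several of these genes encode surface, metabolic or signalling proteins. Slc16a1, the lactate and pyruvate carrier MCT1, was at 26.98 and 14.9 and then 394 and 384 CPM (log2 4.22 ± 0.23, edgeR adjusted p = 1.77e-05). Trib2, a pseudokinase, was at 3.75 and 2.77 CPM and then 64.4 and 65.6 CPM (log2 4.32 ± 0.13). Alpl, the tissue-nonspecific alkaline phosphatase, was at 2.33 and 1.08 CPM and then 33.3 and 35.9 CPM (log2 4.35 ± 0.25). By the ratio of means they rose 18.6-fold, 19.9-fold and 20.3-fold. Il33, an alarmin cytokine, went from 0.906 and 0.361 to 19.8 and 19.7 CPM (log2 4.97, 5.68 without pre-proB replicate 1). Gpr12, Slco5a1, Klhl14 and Tmprss3 rose by log2 values between 4.19 and 5.44. Fmn2, an actin-nucleating formin, and Pipox, a peroxisomal oxidase, rose by log2 4.48 and 4.47, values that lay between 3.84 and 5.38 for Fmn2 and between 3.82 and 5.39 for Pipox with either pre-proB library left out.

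Ranked by p instead of size, the rises were led by other genes. Hells, a chromatin remodeller of dividing cells, was at 44.1 and 46.2 CPM and then 250.04 and 254 CPM (log2 2.48 ± 0.051, edgeR adjusted p = 9.39e-07). Rrm2, a subunit of ribonucleotide reductase, was at 92.3 and 91.4 CPM and then 592 and 571 CPM (log2 2.66 ± 0.055). Dut, Asf1b, Uhrf1, Ndc80 (a kinetochore subunit), Dtl, Pbk (a mitotic kinase) and Lig1 (a DNA ligase) followed with log2 values between 1.96 and 2.74. Ikzf3 (Aiolos), a lymphoid transcription factor, was at 19.3 and 17.4 CPM in pre-proB cells and 215 and 197 CPM in proB cells (log2 3.49 ± 0.079). Only genes whose stages do not overlap could be named here, so that trait is no result.

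**Figure D3:**
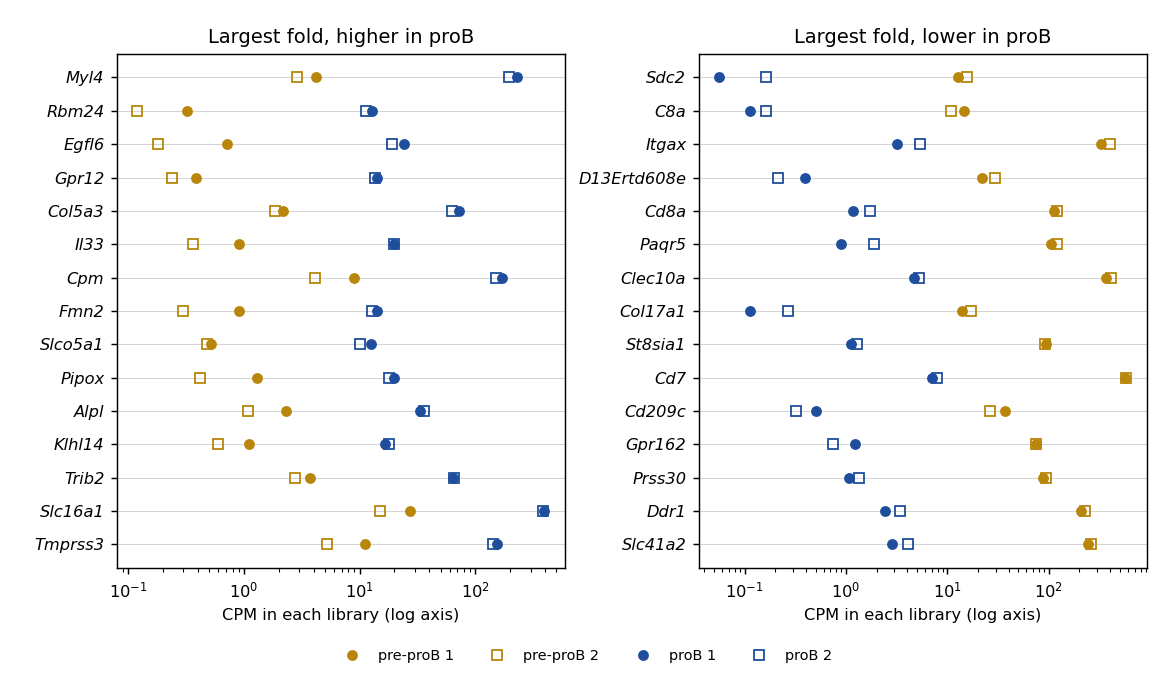
CPM of each library on a log axis for the 15 genes with the largest called increases (left) and the 15 with the largest called decreases (right), filled circles for replicate 1 and open squares for replicate 2. The stages lie apart for every gene by the rule that chose them, and for most of the rising genes pre-proB replicate 1 (filled gold) lies above replicate 2.

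The largest decreases went to near 0 in proB cells. Cd8a, the CD8 alpha chain that T cells and dendritic cells carry, was at 113 and 119.9 CPM in pre-proB cells and 1.18 and 1.72 CPM in proB cells, a fall of 80.4-fold (log2 -6.32 ± 0.12, edgeR adjusted p = 8.23e-07). Clec10a, a C-type lectin of dendritic cells and macrophages, was at 367 and 411 CPM and then 4.73 and 5.2 CPM (log2 -6.29 ± 0.098). Cd7, a surface protein of T, NK and early lymphoid cells, was at 561 and 579 CPM and then 7.09 and 7.94 CPM (log2 -6.24 ± 0.078). The products of these 3 genes are known from T, NK and dendritic cells, and non-overlapping stages were a condition for naming them. St8sia1, Gpr162, Prss30, Ddr1 (a collagen receptor kinase), Slc41a2 (a magnesium carrier) and Cd209c fell, with log2 fold changes of -6.19 to -6.25. Paqr5, a membrane progestin receptor, was at 104 and 119.8 CPM and then 0.901 and 1.88 CPM (log2 -6.32, -6.92 without proB replicate 2). For Sdc2 (syndecan 2) the proB libraries held 1 and 3 counts against 195 and 259 in the pre-proB libraries, for C8a (a complement component) 2 and 3 against 227 and 179, and for Col17a1 2 and 5 against 216 and 286, so no fold change is given for them. D13Ertd608e was at 21.7 and 29.7 CPM and then 0.394 and 0.214 CPM.

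By p-value the decreases were headed by receptors and adhesion genes. Lifr, the leukaemia inhibitory factor receptor, was at 465 and 439.6 CPM and then 8.16 and 8.37 CPM (log2 -5.77 ± 0.07, edgeR adjusted p = 7.82e-07). Cdh1 (E-cadherin) was at 171 and 171 CPM and then 2.53 and 2.95 CPM (log2 -5.96 ± 0.078). Havcr1 (TIM-1), Gria3 (a glutamate receptor subunit), Pacsin1, Sh2b2, Kynu and Man1c1 fell, with log2 fold changes of -4.97 to -6.07. Pacsin1 is also among the plasmacytoid dendritic markers, and those markers fell over the same libraries.

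Promoters are shown for the first 3 rising and the first 3 falling genes of the largest folds with an entry in the promoter table, and further on for 3 classical early B-cell genes. Each runs from 250 bases before to 50 bases after the RefSeq transcription start (GRCm38.p6), 5′ to 3′ on the strand of the gene. Capitals mark CCCNNGGG (the core read by Ebf1), CAGCTG and CAGGTG (E-boxes read by E proteins), GGAAGT (a core of ETS factors such as Erg) and ATTTGCAT (the octamer read by Pou2f proteins), on either strand. CCAAT was searched too and is left in lower case. The 3 rising genes lie at chr11:104550413-104550712, plus strand (Myl4), at chr13:46418050-46418349, plus strand (Rbm24) and at chrX:166585667-166585966, minus strand (Egfl6).
Myl4: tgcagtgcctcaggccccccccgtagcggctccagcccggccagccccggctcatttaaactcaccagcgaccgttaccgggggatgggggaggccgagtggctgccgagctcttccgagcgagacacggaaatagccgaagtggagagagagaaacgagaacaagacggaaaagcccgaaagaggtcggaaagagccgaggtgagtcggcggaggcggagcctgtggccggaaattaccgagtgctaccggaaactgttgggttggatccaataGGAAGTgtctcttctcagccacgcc
Rbm24: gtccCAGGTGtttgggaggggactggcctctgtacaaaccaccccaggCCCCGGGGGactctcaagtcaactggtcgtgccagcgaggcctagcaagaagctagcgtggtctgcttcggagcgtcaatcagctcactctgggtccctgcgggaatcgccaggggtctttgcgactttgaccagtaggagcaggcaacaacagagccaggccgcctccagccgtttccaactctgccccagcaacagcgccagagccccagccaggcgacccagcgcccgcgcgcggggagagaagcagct
Egfl6: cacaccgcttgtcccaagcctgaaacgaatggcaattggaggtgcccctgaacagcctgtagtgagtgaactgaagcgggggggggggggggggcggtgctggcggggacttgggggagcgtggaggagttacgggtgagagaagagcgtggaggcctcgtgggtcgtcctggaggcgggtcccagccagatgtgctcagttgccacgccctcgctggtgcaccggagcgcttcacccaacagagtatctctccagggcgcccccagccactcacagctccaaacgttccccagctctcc
The 3 falling genes lie at chr4:104876349-104876648, minus strand (C8a), at chr7:128129300-128129599, plus strand (Itgax) and at chr6:71373177-71373476, plus strand (Cd8a), and Itgax, a sort gene, is shown for its rank only.
C8a: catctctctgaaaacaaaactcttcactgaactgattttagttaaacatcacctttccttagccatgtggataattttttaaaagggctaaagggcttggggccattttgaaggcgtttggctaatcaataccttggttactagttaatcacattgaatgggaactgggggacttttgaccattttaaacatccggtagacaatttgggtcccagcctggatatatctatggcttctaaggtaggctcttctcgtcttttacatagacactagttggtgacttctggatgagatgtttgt
Itgax: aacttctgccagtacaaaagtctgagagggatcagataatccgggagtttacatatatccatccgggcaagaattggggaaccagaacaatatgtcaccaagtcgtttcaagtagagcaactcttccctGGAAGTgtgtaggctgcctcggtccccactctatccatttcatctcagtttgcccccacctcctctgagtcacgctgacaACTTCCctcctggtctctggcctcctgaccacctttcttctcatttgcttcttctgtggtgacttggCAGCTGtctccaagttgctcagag
Cd8a: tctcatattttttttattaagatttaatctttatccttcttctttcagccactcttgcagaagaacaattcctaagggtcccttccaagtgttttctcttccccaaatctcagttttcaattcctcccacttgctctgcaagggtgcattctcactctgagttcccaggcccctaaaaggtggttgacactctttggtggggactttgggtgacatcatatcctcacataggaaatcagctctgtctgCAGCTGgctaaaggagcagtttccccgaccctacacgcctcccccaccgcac
Rbm24 held 2 overlapping CCCNNGGG matches and 1 CAGGTG, Itgax 2 GGAAGT and 1 CAGCTG, Myl4 1 GGAAGT and Cd8a 1 CAGCTG, and Egfl6 and C8a had none of the 5 capitalised motifs in this window.

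Transcription factors of the B lineage rose as a group but not throughout. Of 25 tested, 17 were called higher and 6 lower, 11 and 2 of them at least 2-fold (15.5% and 19.2% over all genes tested), with a median log2 fold change of 0.88. Ebf1, which opens B-cell genes, was at 59.6 and 21.1 CPM in pre-proB cells and 258 and 264 CPM in proB cells (log2 2.70 ± 0.40, edgeR adjusted p = 0.00126). Pax5 was at 27.05 and 7.70 CPM and then 177 and 176 CPM (log2 3.36 ± 0.43, edgeR adjusted p = 0.000634). Both stages lay well apart, with proB replicates within a few percent, while the log2 fold change ranged from 2.09 without pre-proB replicate 2 to 3.56 without replicate 1 for Ebf1 and from 2.67 to 4.45 for Pax5. Pou2af1 (OCA-B), a coactivator of octamer-binding factors, had the largest rise of the list, from 129 and 49.8 to 1148 and 1106 CPM (log2 3.66 ± 0.42, 4.43 without pre-proB replicate 1). Irf4 rose from 74.3 and 57.8 to 510.1 and 478 CPM (log2 2.90 ± 0.12), and Bach2 from 102 and 82.2 to 664 and 611 CPM (log2 2.79 ± 0.11). The pre-proB replicates of these last 2 factors lay closer together than those of Ebf1 and Pax5.

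Erg itself was at 69.7 and 25.1 CPM in the pre-proB and 149 and 132 CPM in the proB libraries (log2 1.57 ± 0.40, edgeR adjusted p = 0.0127). Its log2 fold change was 2.42 without pre-proB replicate 1 and 0.97 without replicate 2, and the call was lost without proB replicate 1 (adjusted p = 0.0721) or proB replicate 2 (adjusted p = 0.0548). The related ETS genes Ets1 and Fli1 rose less, by log2 0.88 ± 0.11 and 0.39 ± 0.052, and Spi1 (PU.1), an ETS factor of myeloid and B cells, was at 47.8 and 53.8 CPM and then 56.4 and 55.9 CPM and was not called. Lef1 rose by log2 2.35 (3.13 without pre-proB replicate 1), Myb by 1.63 ± 0.13, Sox4 by 1.38 ± 0.12 and Foxo1 by 0.93 ± 0.12. Ikzf1 (Ikaros) and Runx1 rose by under 2-fold. The decreases were of Bcl11a, from 528 and 571 to 181 and 179 CPM (log2 -1.61 ± 0.061), Nfkb1 (log2 -1.10 ± 0.063), Spib (log2 -0.79 ± 0.069), Mef2c, Zbtb7a and Rel. Spib and Bcl11a are also known for roles in plasmacytoid dendritic cells, whose markers fell in the same libraries. The part of those cells in these decreases was not tested.

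The pre-BCR and its signalling chain rose in most members. Of 20 genes tested 16 were called higher and 2 lower (36.9% and 36.6% over all genes tested). At least 2-fold, 14 were higher and none lower (15.5% and 19.2% over all genes tested). The median log2 fold change was 1.70. Igll1 (lambda 5), the constant part of the surrogate light chain, was at 251 and 83.8 CPM in pre-proB cells and 706 and 648 CPM in proB cells (log2 2.02 ± 0.46, edgeR adjusted p = 0.00818). Vpreb1, its variable-like partner, was at 189.8 and 63.7 CPM and then 449 and 422 CPM (log2 1.78 ± 0.45, edgeR adjusted p = 0.0124). Cd79a, the signalling chain Ig alpha, was at 170.4 and 59.3 CPM and then 808 and 824 CPM (log2 2.83 ± 0.45). Pre-proB replicate 1 exceeded replicate 2 in all 3 and no pre-proB value reached a proB value. Without pre-proB replicate 1 the log2 fold changes were 2.95, 2.70 and 3.71 in this order, and without replicate 2 they were 1.39, 1.16 and 2.22. Vpreb1 lost its call without proB replicate 1 (adjusted p = 0.0622) or proB replicate 2 (adjusted p = 0.0557), and so did Vpreb2 (adjusted p = 0.0739 and 0.0705).

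Promoters of the 3 genes lie at chr16:16863936-16864235, minus strand (Igll1), at chr16:16869206-16869505, minus strand (Vpreb1) and at chr7:24897247-24897546, plus strand (Cd79a), and are shown because early B-cell factors are known to act on them.
Igll1: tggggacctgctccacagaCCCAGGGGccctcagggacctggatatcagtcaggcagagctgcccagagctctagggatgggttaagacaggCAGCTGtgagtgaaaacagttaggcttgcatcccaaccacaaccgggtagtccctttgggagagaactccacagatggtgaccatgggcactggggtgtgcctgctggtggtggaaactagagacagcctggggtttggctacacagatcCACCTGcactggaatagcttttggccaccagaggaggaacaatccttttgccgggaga
Vpreb1: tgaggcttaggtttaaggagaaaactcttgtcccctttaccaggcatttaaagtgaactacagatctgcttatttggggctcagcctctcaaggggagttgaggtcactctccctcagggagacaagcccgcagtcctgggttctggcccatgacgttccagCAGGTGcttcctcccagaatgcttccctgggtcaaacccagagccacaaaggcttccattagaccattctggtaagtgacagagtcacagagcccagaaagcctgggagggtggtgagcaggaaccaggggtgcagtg
Cd79a: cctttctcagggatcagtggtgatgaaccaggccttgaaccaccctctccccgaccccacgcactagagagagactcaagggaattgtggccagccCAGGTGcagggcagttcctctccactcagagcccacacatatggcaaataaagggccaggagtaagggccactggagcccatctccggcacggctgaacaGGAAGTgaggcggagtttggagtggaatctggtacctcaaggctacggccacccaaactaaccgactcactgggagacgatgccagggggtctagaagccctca
Igll1 held 1 CCCNNGGG, 1 CAGCTG and 1 CAGGTG, Vpreb1 1 CAGGTG, and Cd79a 1 CAGGTG and 1 GGAAGT. Over the 10287 tested genes with a promoter entry, CCCNNGGG was found in 17.9% of windows, CAGCTG in 14.7%, CAGGTG in 17.4%, GGAAGT in 29.6%, ATTTGCAT in 1.43% and CCAAT in 39.1%. Among the 134 promoters of genes at least 8-fold higher in proB cells the shares were 27.6%, 25.4%, 20.1%, 21.6%, 5.22% and 38.1% in the same order. Among the 585 of genes at least 8-fold lower they were 19.3%, 19.5%, 23.1%, 26.0%, 2.22% and 32.5%. These shares are descriptions with no test, and a match in the window is not a bound site.

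Other members of the receptor complex rose too. Ms4a1 (CD20) went from 7.89 and 6.49 to 76.6 and 83.9 CPM (log2 3.48 ± 0.11, edgeR adjusted p = 2.06e-06), and Cd22, an inhibitory lectin, from 45.7 and 55.6 to 239 and 229 CPM (log2 2.20 ± 0.093). Blk, a Src family kinase, rose by log2 1.62 ± 0.057, Cd72 by 1.497 ± 0.075 and Btk by 0.79 ± 0.059. Cd81, a tetraspanin, went from 18.6 and 6.43 to 125 and 127 CPM (log2 3.35 ± 0.36, 2.72 to 4.22 with a pre-proB library left out), and Cd79b (Ig beta) from 166 and 97.3 to 690.1 and 649 CPM (log2 2.35 ± 0.24). Vpreb3 rose by log2 2.71 ± 0.43 (2.10 to 3.58 in the same way). Downstream signalling genes moved less: Blnk rose by log2 0.52 ± 0.087, Lyn fell (log2 -0.64 ± 0.069), Pik3ap1 (BCAP) fell (log2 -0.34 ± 0.079), a call lost without proB replicate 2, and Syk (823 and 773 CPM and then 932 and 853 CPM) and Plcg2 (339 and 346 CPM and then 367 and 363 CPM) were not called.

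Recombination genes were mostly higher in proB cells. Of 15 tested 11 were called higher and 3 lower (36.9% and 36.6% over all genes tested). At least 2-fold, 9 were higher and 1 lower (15.5% and 19.2% over all genes tested). The median log2 fold change was 1.65. Rag1 was at 285 and 119 CPM in pre-proB and 680.1 and 585 CPM in proB cells (log2 1.65 ± 0.37, edgeR adjusted p = 0.00799), and Rag2 at 43.9 and 18.6 CPM and then 128 and 124 CPM (log2 2.02 ± 0.33). Both were over 2 times higher in pre-proB replicate 1 than in replicate 2, and without replicate 1 the log2 fold changes were 2.34 and 2.69. The Rag1 call was lost without proB replicate 1 (adjusted p = 0.0504). Dntt (TdT), which adds bases at the joins, was already at 727 and 448 CPM in pre-proB cells and stood at 866 and 895 CPM in proB cells (log2 0.58 ± 0.21, edgeR adjusted p = 0.044), and lost its call without either proB library (adjusted p = 0.123 and 0.15). Of the end-joining genes Xrcc5 (Ku80) rose from 5.31 and 3.61 to 42.6 and 43.5 CPM (log2 3.28 ± 0.16), Lig4 from 26.5 and 17.7 to 121 and 108 CPM (log2 2.37 ± 0.17), and the polymerases Poll and Polm by 2.54 ± 0.23 and 2.29 ± 0.10. Dclre1c (Artemis), which opens hairpin ends, fell from 146 and 144 to 64.4 and 52.6 CPM (log2 -1.31 ± 0.095), Atm and Prkdc fell by under 2-fold, and Xrcc4 was not called. Nhej1 was called higher but lost its call with any 1 of the 4 libraries left out.

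Immunoglobulin transcripts changed by segment kind. Reads of these near-identical segments can be shared between them by the counting, so they are summed. Heavy chain V segments summed to 272 and 203 CPM in the pre-proB libraries and 617 and 674 CPM in the proB libraries, and 69 of 89 tested were called higher, 68 of them at least 2-fold, and none lower, but 26 of the 69 were under 0.5 CPM in both pre-proB libraries and so passed the filter only through proB cells. Heavy chain J segments summed to 253 and 252 CPM and then 45.7 and 50.7 CPM, and 4 of 4 were called at least 2-fold lower. V and J transcripts of the heavy chain thus moved in opposite directions. Heavy chain D segments included 4 called higher and 1 lower of 5 tested, each at least 2-fold, at summed levels of 5.37 and 6.01 CPM and 6.87 and 6.86 CPM. Among the 4 called higher, 2 were under 0.5 CPM in both pre-proB libraries and so passed the filter only through proB cells. Kappa V segments were called higher for 34 of 80 and lower for 1 (33 and 1 at least 2-fold), 12 of the 34 being under 0.5 CPM in both pre-proB libraries. Kappa J segments were called at least 2-fold higher for 5 of 5 (19.8 and 21.5 CPM, then 74.4 and 71.3 CPM), and the kappa constant gene Igkc went from 319 and 313 to 545 and 713 CPM (log2 0.99 ± 0.13). Of the lambda segments 1 V was at least 2-fold higher and 1 at least 2-fold lower of 3 tested, none of 3 J was called, and of the constant genes Iglc1 rose (log2 2.01) and Iglc3 fell (log2 -1.98). Iglc2 was at 32.7 and 11.8 CPM and then 108 and 50.8 CPM (log2 1.84 ± 0.52), with log2 2.68 without pre-proB replicate 1 and 1.24 without replicate 2.

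Among heavy chain constant genes, Ighm (IgM) was at 3162 and 2848 CPM in pre-proB and 4611 and 4401 CPM in proB cells and Ighd at 43.4 and 43.6 CPM and then 75.5 and 73.1 CPM. Igha rose from 196 and 293 to 598 and 638 CPM (log2 1.33 ± 0.18), Ighg2b from 93.4 and 75.8 to 179 and 257 CPM (log2 1.37 ± 0.19), and Ighg3 fell from 226 and 213 to 56.4 and 42.6 CPM (log2 -2.15 ± 0.13). Ighg2c was at 91.9 and 54.1 CPM and then 24.7 and 121 CPM and was not called. Its proB replicates lay on either side of both pre-proB values. Jchain, which joins secreted IgM and IgA, rose from 97.3 and 105 to 217 and 209 CPM (log2 1.07 ± 0.057). On a CPM scale set over all 8 libraries, Igha was at 580 and 612 CPM in proB and 10.2 and 5.64 CPM in preB cells. Jchain was at 210 and 200 and then 7.50 and 1.69 CPM, and Ighg2b at 174 and 247 and then 4.07 and 3.55 CPM. Ighm was higher in preB cells, at 4475 and 4223 and then 8827 and 9264 CPM. Which cells carried these transcripts was not tested. T cell receptor alpha and delta segments summed to 20.5 and 26.1 CPM and then 1.802 and 2.788 CPM. Of the alpha and delta, beta and gamma segments tested, 6 of 7, 5 of 6 and 3 of 4 were under 0.5 CPM in both proB libraries and so passed the filter only through the pre-proB libraries.

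E protein genes moved in both directions. Tcf3 was at 241 and 191 CPM in pre-proB cells and 873 and 845 CPM in proB cells (log2 1.99 ± 0.11, edgeR adjusted p = 1.97e-05). Tcf4 (E2-2), the E protein of plasmacytoid dendritic cells, was at 1553 and 1641 CPM and then 195 and 193 CPM (log2 -3.04 ± 0.059, edgeR adjusted p = 8.89e-07), and Tcf12 (HEB) changed by log2 -0.20 ± 0.048, a call lost without either proB library. The stages were apart for all 3. Of their inhibitors Id3 rose from 34.8 and 22.4 to 63.8 and 61.7 CPM and Id2 fell from 11.97 and 15.2 to 3.55 and 5.63 CPM, while Id1 and Id4 were under the filter. In this list 2 members were called higher and 3 lower of 5 tested (2 and 2 at least 2-fold, and 1 and 2 without pre-proB replicate 2), with a median log2 fold change of -0.20.

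The Notch pathway, which steers lymphoid progenitors to the T lineage, was split between receptors and targets. Notch1 fell from 305 and 329.7 to 87.1 and 89.1 CPM (log2 -1.85 ± 0.059), Notch2 from 224 and 239 to 32.3 and 36.03 CPM (log2 -2.76 ± 0.071) and Notch3 from 42.8 and 44.6 to 1.13 and 0.965 CPM (log2 -5.38 ± 0.13, edgeR adjusted p = 1.12e-06). Dtx1 rose from 0.712 and 0.782 to 12.7 and 11.4 CPM (log2 4.00 ± 0.20), Hes1 from 9.83 and 4.63 to 33.2 and 34.3 CPM (log2 2.23 ± 0.29) and Nrarp from 2.14 and 0.962 to 16.2 and 18.6 CPM (log2 3.50 ± 0.30, 4.10 without pre-proB replicate 1). These 3 genes are known transcriptional targets of the pathway, and none reached 10 CPM in a pre-proB library. With Lfng (log2 1.53 ± 0.16) 4 members were called higher and with Rbpj 4 lower of 9 tested (4 and 3 at least 2-fold), the median log2 fold change was 0.01, and Maml1 was not called. Over all genes tested 36.9% were called higher and 36.6% lower.

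Genes of early progenitors fell in 10 of 13 tested and rose in 2 (36.6% and 36.9% over all genes tested). At least 2-fold, 9 were lower and 1 higher (19.2% and 15.5% over all genes tested). The median log2 fold change was -2.21. Flt3, the cytokine receptor of lymphoid progenitors, was at 506 and 573 CPM in pre-proB cells and 21.3 and 28.8 CPM in proB cells (log2 -4.43 ± 0.15, edgeR adjusted p = 2.88e-06). Lmo2, a stem cell transcriptional adaptor, was at 137 and 142 CPM and then 23.2 and 25.1 CPM (log2 -2.53 ± 0.062), and Ly6d at 868 and 1052 CPM and then 118 and 141 CPM (log2 -2.89 ± 0.13). The stages did not overlap for these 3. Cd34 fell (log2 -4.07 ± 0.29), as did Mn1 (log2 -4.87 ± 0.39, -4.23 without proB replicate 1 and -5.99 without replicate 2) and Ly6a (Sca-1, log2 -4.32 ± 0.35, -5.12 without proB replicate 2). Cd93 ran the other way, from 219 and 151 to 699 and 688 CPM (log2 1.91 ± 0.17), and Kit was at 28.4 and 22.6 CPM and then 32.1 and 40.3 CPM (log2 0.51 ± 0.15, edgeR adjusted p = 0.0241), a call lost without pre-proB replicate 2 or proB replicate 2. Mecom and Gata2 were under the filter.

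Interleukin-7 signalling genes showed no common direction, with 5 called higher and 6 lower of 12 tested (36.9% and 36.6% over all genes tested). At least 2-fold changes numbered 2 and 1, and the median log2 fold change was -0.12. Without proB replicate 1 the called counts were 3 and 5. Il7r, the receptor's own chain, was at 417 and 411 CPM in pre-proB cells and 503 and 471 CPM in proB cells (log2 0.23 ± 0.057, edgeR adjusted p = 0.0108), a call lost without proB replicate 1. Stat5a and Stat5b, which carry the signal, fell (log2 -0.65 ± 0.053 and -0.54 ± 0.051). Of the feedback inhibitors Socs2 rose from 7.31 and 3.61 to 42.5 and 39.5 CPM (log2 2.92 ± 0.27) and Cish from 3.04 and 2.22 to 7.32 and 7.4 CPM (log2 1.48 ± 0.21), while Socs3 fell from 8.35 and 9.14 to 1.13 and 1.56 CPM (log2 -2.70 ± 0.23). Pim1, a kinase induced by STAT5, rose by log2 0.84 ± 0.079. The PI3K list had no member past 2-fold, and at most 1 in a direction with a library left out, with 6 called higher and 5 lower of 15 and a median log2 fold change of 0.05. The shares over all genes tested were again 36.9% and 36.6%. Within the PI3K list Akt1 and Mtor rose by log2 0.72 ± 0.052 and 0.69 ± 0.066, and Pik3ip1, Foxo3 and Rictor fell (log2 -0.99 ± 0.077, -0.90 ± 0.082 and -0.77 ± 0.047).

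Cell division genes rose throughout. All 28 genes listed for DNA replication and mitosis were called and at least 2-fold higher in proB cells, with a median log2 fold change of 2.02, and 27 were past 2-fold without pre-proB replicate 1 and 28 without any other library. Mki67, the proliferation marker, was at 439 and 465 CPM in pre-proB cells and 2117 and 1956 CPM in proB cells (log2 2.17 ± 0.066, edgeR adjusted p = 2.06e-06). Pcna, the sliding clamp of replication, was at 205 and 204 CPM and then 814 and 813 CPM (log2 1.99 ± 0.051), and Cdk1 at 38.8 and 42.8 CPM and then 247 and 259 CPM (log2 2.63 ± 0.065). Replicates of each lay close together at both stages. The 6 Mcm helicase genes rose by log2 values between 1.73 and 2.09, and the mitotic genes Ccnb1, Ccna2 and Plk1 by 2.59 ± 0.065, 2.46 ± 0.065 and 2.35 ± 0.069. The smallest rise of the list was that of E2f1 (log2 1.004 ± 0.078).

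The D cyclins moved in both directions. Ccnd1 (cyclin D1) was at 604 and 738 CPM in pre-proB cells and 12.7 and 16.5 CPM in proB cells, a 46.1-fold fall (log2 -5.52 ± 0.16, edgeR adjusted p = 1.91e-06). Ccnd2 rose from 75.3 and 72.1 to 269 and 275 CPM (log2 1.88 ± 0.051), and Ccnd3, the cyclin D of dividing B-cell precursors, from 226 and 240.3 to 946 and 1004 CPM (log2 2.06 ± 0.063). Cdk4 and Cdk6 rose by log2 1.23 ± 0.057 and 1.23 ± 0.16. Of the inhibitors Cdkn1a (p21) rose from 8.22 and 6.85 to 36.9 and 46.1 CPM (log2 2.46 ± 0.15), Cdkn2c (p18) by 0.80 ± 0.063, and Cdkn1b (p27) was at 123 and 106 CPM and then 129 and 120.5 CPM and was not called. Btg2, an antiproliferative gene, fell (log2 -1.04 ± 0.056). Among the members of this list called higher, 1 was under 0.5 CPM in both pre-proB libraries and so passed the filter only through the proB libraries. In all, 9 members of this list were called higher and 4 lower of 15 tested (36.9% and 36.6% over all genes tested). At least 2-fold changes numbered 7 and 2 (15.5% and 19.2% over all genes tested).

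In the Myc network the paralogues changed in opposite directions. Myc was at 20.7 and 14.2 CPM in pre-proB cells and 174 and 183 CPM in proB cells (log2 3.35 ± 0.15, edgeR adjusted p = 6.96e-06), while Mycl was at 204 and 206 CPM and then 3.15 and 4.08 CPM (log2 -5.82 ± 0.094, edgeR adjusted p = 7.82e-07). Mycn rose within low levels (0.324 and 0.421 CPM and then 1.63 and 1.93 CPM). The partner Max was at 103 and 109 CPM and then 105 and 103 CPM and was not called, and of the Mxd antagonists Mxd3 rose by log2 1.26 ± 0.13 and Mxd1 and Mxd4 fell (log2 -0.59 ± 0.11 and -0.72 ± 0.11). The list counted 4 called higher and 5 lower of 11, shares near the 36.9% and 36.6% over all genes tested, with 3 and 1 at least 2-fold (median log2 fold change -0.13). Among the 4 called higher, 1 was under 0.5 CPM in both pre-proB libraries and so passed the filter only through the proB libraries.

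**Figure D4:**
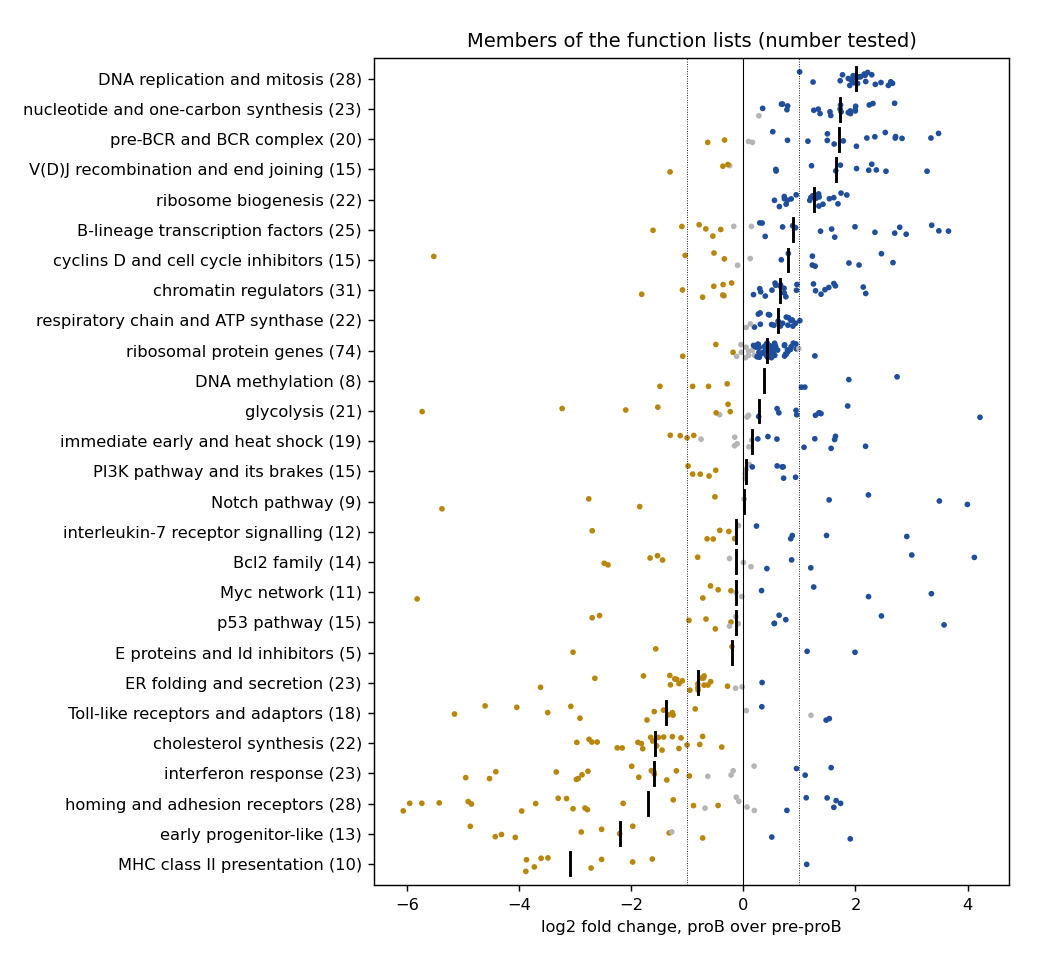
Log2 fold change of proB over pre-proB cells for each member tested of 27 function lists, 1 point a gene, with called increases in blue, called decreases in gold and uncalled genes in grey. Black bars are list medians, the dotted lines mark 2-fold, and lists run from MHC class II presentation (median -3.10) to DNA replication and mitosis (median 2.02).

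Biosynthetic genes rose beside the division genes. Ribosome biogenesis was called higher for 22 of 22, 14 of them at least 2-fold (36.9% and 15.5% over all genes tested). Its median log2 fold change was 1.255. Ncl (nucleolin) was at 574 and 527 CPM in pre-proB cells and 1773 and 1908 CPM in proB cells (log2 1.74 ± 0.069, edgeR adjusted p = 5.04e-06), and Wdr12, needed for the large subunit, had the largest rise (log2 1.85 ± 0.12). Nucleotide and one-carbon synthesis was called higher for 22 of 23, 17 at least 2-fold, with a median of 1.73. Shmt1, which feeds one-carbon units to thymidylate, went from 13.7 and 11.4 to 77.4 and 84.7 CPM (log2 2.70 ± 0.10), Mthfd1l, a mitochondrial folate enzyme, rose by log2 2.31 ± 0.059, and Psat1 of serine synthesis by 2.25 ± 0.054. Only Psph was not called (19.4 and 17.6 CPM and then 20.3 and 24.5 CPM). Structural genes of the ribosome moved less: 61 of 74 ribosomal protein genes were called higher and 3 lower, with a median log2 fold change of 0.42 and 1 member past 2-fold in each direction, Rps2 (log2 1.28 ± 0.078) and Rpl31 (log2 -1.08 ± 0.072). Without proB replicate 1 these counts were 3 and 0.

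Energy metabolism changed in part. Of 22 respiratory chain and ATP synthase genes 20 were called higher, 1 of them at least 2-fold (Cycs, cytochrome c, log2 1.01 ± 0.073; none without pre-proB replicate 1 or 2 or proB replicate 2), and none lower, with a median of 0.62. Of 21 glycolysis genes 11 were called higher and 7 lower (36.9% and 36.6% over all genes tested), 6 and 4 of them at least 2-fold, with a median of 0.27. Enzymes of the later steps rose, Tpi1 from 57.6 and 59.9 to 203 and 224 CPM (log2 1.86 ± 0.067), Gapdh by 1.35 ± 0.061, Pgk1 by 1.35 ± 0.054, Eno1 by 1.29 ± 0.065 and Ldha by 1.38 ± 0.075. Ldhb, the other lactate dehydrogenase chain, fell from 56.6 and 57.8 to 0.957 and 1.18 CPM (log2 -5.73 ± 0.12, edgeR adjusted p = 9.56e-07), the aldolase Aldoc from 15.4 and 18.3 to 1.75 and 1.82 CPM (log2 -3.23 ± 0.17), and the glucose carrier Slc2a3 (GLUT3) from 135 and 149 to 30.2 and 36.1 CPM (log2 -2.10 ± 0.098), while Slc2a1 (GLUT1) was at 13.5 and 11.8 CPM and then 12.3 and 14.7 CPM and was not called.

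Cholesterol synthesis went down as a whole. All 22 genes of the list were called lower in proB cells and 19 were at least 2-fold lower, with a median log2 fold change of -1.58, and none was higher under any library left out. Insig1, a sterol sensor, was at 163 and 173 CPM and then 25.6 and 24.2 CPM (log2 -2.75 ± 0.061, edgeR adjusted p = 1.03e-06). Msmo1, Mvd and Fdps fell (log2 -2.70 ± 0.12, -2.61 ± 0.17 and -2.25 ± 0.14). Srebf2, the transcription factor that drives these genes, fell from 399.5 and 449 to 143 and 147 CPM (log2 -1.55 ± 0.071). The levels lay apart between the stages at each of these genes.

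Folding and secretion genes of the endoplasmic reticulum fell more mildly, 20 of 23 called lower and 1 higher (36.6% and 36.9% over all genes tested). Of these 9 were at least 2-fold lower (19.2% over all genes tested), with a median of -0.81. Xbp1, which expands the secretory apparatus, was at 411 and 479.7 CPM and then 66.3 and 75.7 CPM (log2 -2.65 ± 0.10, edgeR adjusted p = 4.74e-06), and Ern1 (IRE1), the sensor that splices its transcript, at 164 and 168 CPM and then 12.8 and 14.2 CPM (log2 -3.62 ± 0.065, edgeR adjusted p = 7.82e-07). The chaperones Hspa5 and Hsp90b1 fell (log2 -0.95 ± 0.084 and -1.22 ± 0.072), and Atf4 rose by log2 0.33 ± 0.046. Plasmacytoid dendritic cells are secretory cells, and their markers fell over the same libraries as these genes (median log2 fold change -5.48). The part of those cells in the fall of the secretion genes was not tested.

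Chromatin genes rose in 23 of 31 and fell in 8, 9 and 2 of them past 2-fold, with a median of 0.66. Among the 23 that rose, 1 was under 0.5 CPM in both pre-proB libraries and so passed the filter only through the proB libraries. Ezh2, the Polycomb methyltransferase, was at 146 and 130.2 CPM in pre-proB cells and 635 and 618 CPM in proB cells (log2 2.18 ± 0.072, edgeR adjusted p = 2.62e-06), and its partner Suz12 at 166 and 171 CPM and then 463 and 461 CPM (log2 1.46 ± 0.05), whereas the alternative enzyme Ezh1 fell from 93.0 and 88.1 to 41.7 and 43.6 CPM (log2 -1.09 ± 0.058). The remodelling ATPases were likewise opposed: Smarca4 (BRG1) rose from 623 and 401 to 1616 and 1521 CPM (log2 1.61 ± 0.20) and Smarca2 (BRM) fell from 121 and 118 to 31.2 and 36.6 CPM (log2 -1.81 ± 0.081). Cohesin genes Rad21, Smc1a and Smc3 rose by log2 1.39 ± 0.053, 1.29 ± 0.05 and 0.96 ± 0.053 and Ctcf by 0.76 ± 0.05, and the cohesin release factor Wapl fell (log2 -0.53 ± 0.094). Of 8 DNA methylation genes 4 were called higher and 4 lower, 4 and 1 at least 2-fold (3 and 2 without pre-proB replicate 2). Over all genes tested 36.9% were called higher and 36.6% lower. Dnmt1, the maintenance methyltransferase, went from 218 and 231 to 824 and 828 CPM (log2 1.88 ± 0.057) with its cofactor Uhrf1 (log2 2.74 ± 0.062), and the demethylating enzymes Tet1, Tet2 and Tet3 fell (log2 -0.90 ± 0.099, -1.49 ± 0.059 and -0.62 ± 0.045).

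Antigen presentation and innate sensing genes mostly fell. Of 10 MHC class II genes 9 were at least 2-fold lower and 1 at least 2-fold higher (19.2% and 15.5% over all genes tested). Their median log2 fold change was -3.10. H2-Aa, a chain of the presenting molecule, was at 927 and 1033 CPM in pre-proB cells and 64.4 and 69.8 CPM in proB cells (log2 -3.87 ± 0.084, edgeR adjusted p = 9.96e-07), Cd74 (the invariant chain) at 2148 and 2435 CPM and then 179 and 229.8 CPM (log2 -3.49 ± 0.14), and Ciita, the master regulator, at 83.7 and 87.6 CPM and then 24.2 and 19.5 CPM (log2 -1.97 ± 0.10). H2-Ob, an inhibitor of peptide loading in B cells, was the member that rose, from 91.8 and 54.7 to 169 and 151 CPM (log2 1.13 ± 0.22, 0.76 without pre-proB replicate 2). Toll-like receptor genes fell in 13 of 18 tested and rose in 3 (36.6% and 36.9% over all genes tested). Past 2-fold were 12 and 2 of them (19.2% and 15.5% over all genes tested), with a median of -1.38. Among the 13 that fell, 2 were under 0.5 CPM in both proB libraries and so passed the filter only through the pre-proB libraries. Tlr7, a sensor of RNA, went from 324 and 361 to 8.33 and 10.9 CPM (log2 -5.15 ± 0.12), Tlr9, a sensor of DNA, from 252 and 284 to 25.2 and 22.6 CPM (log2 -3.49 ± 0.087) and Tlr12 from 141 and 176 to 8.90 and 10.3 CPM (log2 -4.04 ± 0.14), while Tlr4 and Tlr1 rose from low levels by 1.53 ± 0.17 and 1.48 ± 0.27.

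Interferon response genes fell in 16 of 23 and rose in 3 (36.6% and 36.9% over all genes tested). Past 2-fold were 15 and 2 of them (19.2% and 15.5% over all genes tested), with a median of -1.60. Irf7, the factor that drives type I interferon, was at 285 and 361 CPM in pre-proB cells and 12.6 and 15.3 CPM in proB cells (log2 -4.53 ± 0.15, edgeR adjusted p = 2.88e-06). Stat2 was at 539.6 and 596 CPM and then 78.3 and 76.1 CPM (log2 -2.88 ± 0.07), Mx1 at 107 and 148 CPM and then 4.67 and 7.19 CPM (log2 -4.42 ± 0.23) and Bst2 at 1343 and 1433 CPM and then 40.5 and 49.0 CPM (log2 -4.95 ± 0.11). Ddx58 (RIG-I) rose from 20.4 and 15.3 to 52.1 and 53.2 CPM (log2 1.57 ± 0.13), and Oas1a and Oas2 by 0.95 ± 0.18 and 1.10 ± 0.22. Irf7, Bst2 and Tlr7 are also plasmacytoid dendritic markers, so these lists and that one are not independent, and the 20 markers had a median log2 fold change of -5.48 in the same libraries.

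Homing and adhesion receptors fell in 17 of 28 tested and rose in 6 (36.6% and 36.9% over all genes tested). Past 2-fold were 15 and 5 of them (19.2% and 15.5% over all genes tested), with a median of -1.70. Among the 17 that fell, 1 was under 0.5 CPM in both proB libraries and so passed the filter only through the pre-proB libraries. Ccr9, which guides cells to thymus and gut, was at 1049 and 1188 CPM in pre-proB cells and 13.9 and 19.4 CPM in proB cells (log2 -6.07 ± 0.17, edgeR adjusted p = 1.67e-06). It is also among the plasmacytoid dendritic markers, which fell over the same libraries, so this list and that one are not independent. Cxcr3, Itgb7 and Ccr2 fell (log2 -5.74 ± 0.091, -5.43 ± 0.21 and -4.91 ± 0.14), and the integrin chains Itgal and Itgb2 fell (log2 -3.30 ± 0.097 and -2.78 ± 0.08). Other members rose. Cxcr4, the receptor for the marrow chemokine CXCL12, rose from 180.1 and 193 to 325 and 313 CPM (log2 0.78 ± 0.057), Ccr7 from 11.4 and 14.2 to 36.7 and 41.7 CPM (log2 1.61 ± 0.13), S1pr1 by 1.66 ± 0.19 and Itga6 by 1.74 ± 0.10, while Itga4, the VCAM1-binding integrin chain, was at 588 and 498 CPM and then 587 and 551 CPM and was not called.

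Survival genes changed individually. Bcl2 was at 65.0 and 90.8 CPM in pre-proB cells and 12.7 and 16.5 CPM in proB cells (log2 -2.42 ± 0.20, edgeR adjusted p = 8.81e-05), and Bcl2l1 (BCL-XL), another protector, at 14.0 and 10.7 CPM and then 104 and 93.8 CPM (log2 3.00 ± 0.12, edgeR adjusted p = 5.43e-06). Mcl1 was at 288 and 282 CPM and then 283 and 288 CPM (log2 0.00 ± 0.049). The 3 protectors thus fell, rose and were not called, in this order. Of the killers Bok rose from 1.68 and 0.240 to 16.05 and 16.9 CPM (log2 4.12 ± 0.52, 3.25 to 5.99 with a pre-proB library left out), Bmf and Bcl2l11 (BIM) rose by log2 1.203 ± 0.16 and 0.86 ± 0.078, and Bbc3 (PUMA) and Pmaip1 (NOXA) fell (log2 -2.48 ± 0.18 and -1.66 ± 0.19). The list counted 5 called higher and 6 lower of 14 tested (36.9% and 36.6% over all genes tested), 3 and 5 at least 2-fold. Among the 6 called lower, 1 was under 0.5 CPM in both proB libraries and so passed the filter only through the pre-proB libraries. In the p53 pathway 6 were called higher and 6 lower of 15, near the shares over all genes (36.9% and 36.6%), and 2 and 2 at least 2-fold (median log2 fold change -0.14), with rises of Plk2 and Cdkn1a (log2 3.58 ± 0.30 and 2.46 ± 0.15) and falls of Zmat3 and Sesn2 (log2 -2.70 ± 0.12 and -2.57 ± 0.15). Immediate early and heat shock genes, which can respond to cell handling, were called higher for 9 and lower for 4 of 19, 6 and 3 of them at least 2-fold (5 and 1 without pre-proB replicate 2). Over all genes tested 36.9% were called higher and 36.6% lower. Among the 9 immediate early and heat shock genes called higher, 1 was under 0.5 CPM in both pre-proB libraries and so passed the filter only through the proB libraries. Fos was at 12.9 and 19.6 CPM and then 15.8 and 19.0 CPM and Jun at 44.6 and 51.3 CPM and then 35.3 and 50.7 CPM, neither of them called, Egr1 rose from 6.34 and 4.51 to 16.3 and 17.2 CPM (log2 1.63 ± 0.18), and Klf2 fell (log2 -1.005 ± 0.086). Tslp, Cdkn2a, Hey1, S1pr5, Tlr8, Bcl2a1d, Bik, Hrk, Eda2r, Atf3 and Hspa1a were listed by function but under the filter.

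Levels in the other populations of the series, on a CPM scale set over all 8 libraries, place some of these genes in a longer course. Ebf1 was at 59.1 and 21.3 CPM in control pre-proB, 250.3 and 253 CPM in proB and 287 and 315 CPM in preB cells, and at 0.438 and 0.517 CPM in the Erg-deleted pre-proB libraries. Pax5 was at 26.8 and 7.78, 172 and 169, 248 and 248 and 0.438 and 0.0646 CPM in the same order. Both were lowest in the Erg-deleted cells. Erg was at 69.1 and 25.4, 144 and 127, 19.6 and 28.7 and 2.50 and 2.58 CPM, so it was highest in the proB libraries, and the Erg-deleted libraries held little of it, as their genotype label says. Igll1 was also highest in proB cells, with 249 and 84.7, 685 and 622, 103 and 155 and 1.44 and 2.45 CPM, as was Myc with 20.5 and 14.4, 168 and 175, 20.1 and 23.6 and 6.25 and 5.81 CPM. Ccnd1 was at 599.6 and 746, 12.3 and 15.8, 5.82 and 6.88 and 704 and 795 CPM, and Siglech at 3857 and 3827, 46.6 and 56.5, 11.2 and 11.5 and 3954 and 4508 CPM. Both of these genes were higher in every pre-proB library of either genotype than in any proB or preB library. Irf4 stood at 73.7 and 58.5, 495 and 459, 915 and 859 and 40.3 and 46.0 CPM, with the preB libraries the highest. These comparisons share libraries with the one described here, and the values are set side by side without a test.

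**Figure D5:**
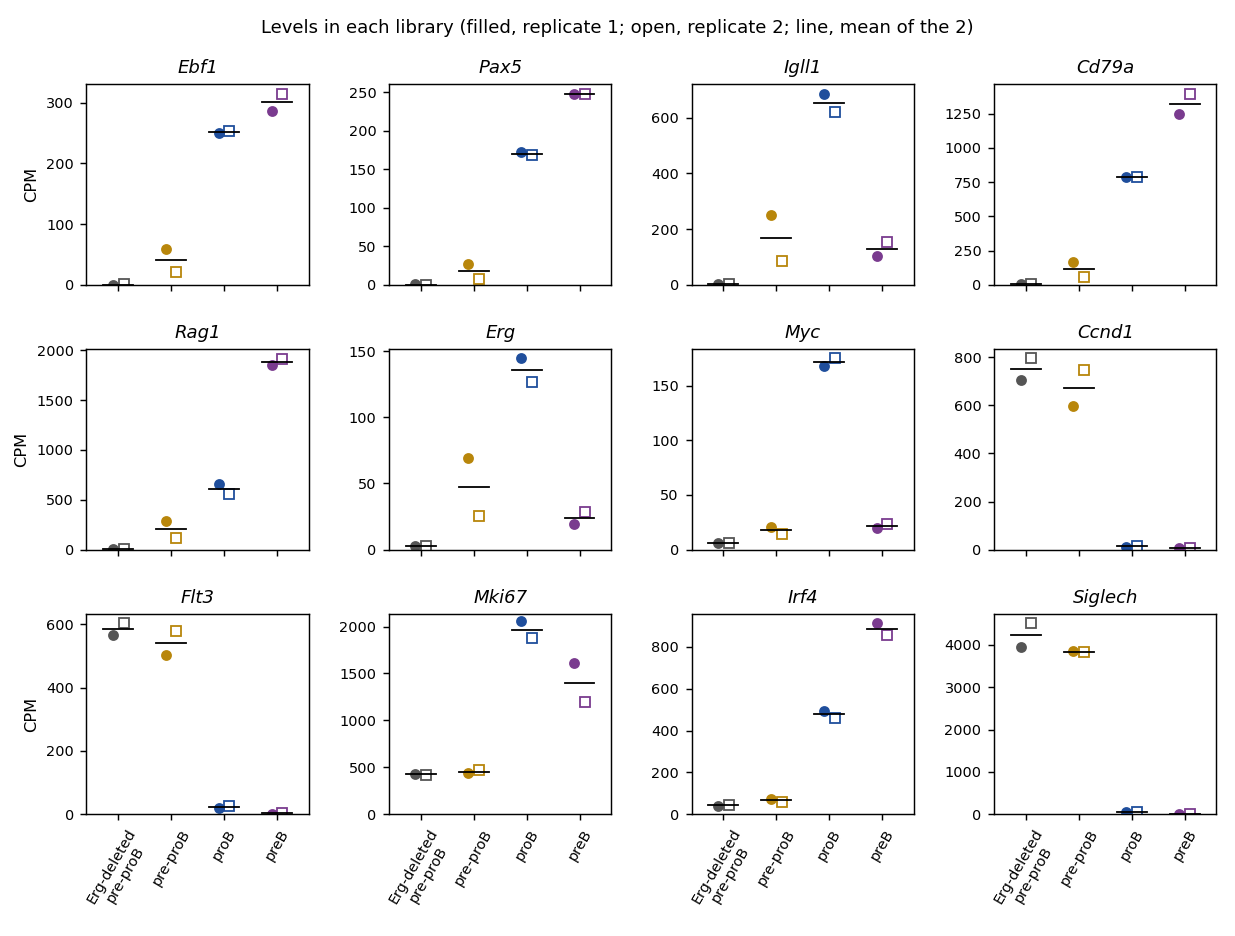
CPM of 12 genes in each of the 8 libraries, from Erg-deleted pre-proB cells (grey) through control pre-proB (gold), proB (blue) and preB cells (purple), with filled circles for replicate 1, open squares for replicate 2 and a line at the mean of the 2. Erg, Igll1 and Myc are highest in proB cells, Ebf1, Pax5, Cd79a, Rag1 and Irf4 highest in preB cells, and Ccnd1, Flt3 and Siglech high in the pre-proB cells of both genotypes.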

How the data were processed

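Bone marrow cells were sorted into 4 populations, 2 libraries each, and 100 bp paired-end mRNA reads were obtained after CASAVA 1.8.2. The authors trimmed reads with Trim Galore, aligned them with STAR to mm10 (GRCm38) and deposited raw counts per Entrez gene made with featureCounts. No source used here gives the STAR version or the strand setting. Overlapping and antisense genes therefore cannot be told apart. Symbols came from RefSeq for 25275 of 27179 identifiers and from GENCODE for 18, and 1886 without one held 0.471% of the counts. Every identifier stayed in the fit.

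Genes reaching 0.5 CPM in 2 or more of the 4 Erg fl/fl pre-proB and proB libraries were fitted in edgeR 4.0.16 (R 4.3.3) with TMM scaling (factors 0.981 to 1.01) and its quasi-likelihood test, stage being the only term, with Benjamini-Hochberg adjustment over all genes tested. Standard errors are the log2 fold change over the root of F. The biological coefficient of variation was 7.96%. On simulated counts for 13158 genes of this comparison the test called 50 of 50 genes raised 2-fold, 47 of 50 lowered 2-fold, and 36 of 12958 unchanged genes. Replicate libraries differed by more than counting noise (chi-square per degree of freedom 7.58 and 4.01).

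The genes compared and the gene and marker lists were chosen with earlier results of these data known. Genes named for size are the 15 with the largest called change in each direction with a symbol, at least 10 CPM in the higher stage and stages that do not overlap, and those named for p are the 10 with the lowest p under the same conditions, with immunoglobulin and T cell receptor genes and unnamed models left out. Listed genes are named for the largest called changes of their list or because they define it, and other listed genes given are for completeness. Promoters were from RefSeq (GRCm38.p6), found for 10287 of the genes tested. DESeq2 1.42.0 and limma 3.58.1 served as alternatives, beside other scalings, filters and sets of libraries. Figures were drawn with matplotlib 3.10.9. Some listed genes are counted in their lists but not reported here by name.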

Additional observations from a re-analysis of the deposited data

How the results depend on the processing

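The count of 9861 genes called stayed within 1.5 times under all 17 alternatives, between 8115 and 10027, and of 675 genes named or listed none of the 600 called changed direction, while 33 of the 75 uncalled changed sign in at least 1 alternative. DESeq2 called 8483 genes, limma-voom 9930, and the fit of all 8 libraries 10027. Leaving out 1 library gave 8115 to 9305 calls, 1681 to 2112 genes 2-fold higher and 2169 to 2441 genes 2-fold lower, and the lone library of a stage was then assumed to vary like the other stage. Of the 600 called, 75 lost the call in at least 1 alternative, and 34 uncalled genes gained it. Scaling by total counts gave 5139 genes higher and 4705 lower, and no filter 4760 and 5175.

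With the replicate number as a replicate block 9822 genes were called. The sources do not say that a number marks an animal, and the same-numbered deviations of the single pair of numbers correlated with r = 0.113 across genes, so the block was not used. The list medians that changed sign in an alternative were 6 of 38: PI3K, E proteins, Notch, Bcl2, myeloid, and basophil and mast cell genes. The causes were not tested. With 2 libraries a stage, genes with few counts in one stage have uncertain fold changes.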

Other observations

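Gene families gathered by the stem of their symbol, after the values had been seen and with no test, add groups that were in none of the lists. Over all 13417 genes tested, 15.5% were called at least 2-fold higher and 19.2% at least 2-fold lower in proB cells. Nuclear pore genes (Nup) were 2-fold higher for 12 of 20 tested and 2-fold lower for none, with a median log2 fold change of 1.09. Nup37 went from 13.2 and 12.3 CPM in pre-proB cells to 44.5 and 51.4 CPM in proB cells (log2 1.91 ± 0.10). Orphan and other G protein-coupled receptors named Gpr were 2-fold lower for 25 of 36 tested and 2-fold higher for 1, Gpr12, which stands among the largest increases. Gpr35 went from 81.3 and 87.7 to 1.91 and 2.09 CPM (log2 -5.39 ± 0.098).

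Motor protein families were split. Of 30 kinesin genes (Kif) 14 were 2-fold higher and 6 were 2-fold lower. Kif11, a motor of the mitotic spindle, went from 146 and 167 to 739 and 701 CPM (log2 2.20 ± 0.081), and Kif5c, a motor of organelle transport, from 4.08 and 5.29 to 0.450 and 0.375 CPM (log2 -3.48 ± 0.31). Myosin heavy chain genes (Myo) were 2-fold lower for 11 of 20 and 2-fold higher for 5, among them Myo1e, from 3.49 and 3.49 to 38.1 and 34.1 CPM (log2 3.37 ± 0.12). Genes of the mitochondrial large ribosomal subunit (Mrpl) moved little one by one, with 3 of 48 at least 2-fold higher and none 2-fold lower, but their median log2 fold change was 0.67.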
